A study of Mus musculus with 4 samples.

Results

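The genes of antigen presentation on major histocompatibility complex (MHC) class I and class II molecules were followed in sorted lung endothelial cells of mice. They were taken from the deposited gene table as the rows whose symbol begins with H2-, the mouse name of the complex, which gave 33 genes, and as 10 genes named singly: Cd74, Ciita, Nlrc5, B2m, Tap1, Tap2, Tapbp, Psmb8, Psmb9 and Psmb10. These 43 of 17915 rows comprised 30 genes of class I presentation, 12 of class II presentation and 1 gene of neither, H2-Ke6, an alias of the steroid dehydrogenase gene Hsd17b8 that lies in the complex. H2-Ke6 stood at 102.7 and 106.8 TPM, the deposited measure of abundance that corrects for transcript length and library size, in the tdTomato+ libraries and at 92.5 and 104.6 in the ZsGreen+ libraries, and is not described further.

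All mice had the genotype Cdh5-CreER;aSMA-LSL-Dre;NR1, received tamoxifen 5 times, and had undergone TAC, transverse aortic constriction, which narrows the aorta, 6 weeks before. Cdh5-CreER is a tamoxifen-inducible recombinase driven by an endothelial promoter, and the design text describes a second recombinase tied to alpha smooth muscle actin (aSMA), so that labelled endothelium is ZsGreen+ until the actin gene has been active, however briefly, and tdTomato+ from then on. Bulk RNA sequencing compared 2 tdTomato+ with 2 ZsGreen+ libraries, each labelled a biological replicate. Every library thus came from animals with TAC and tamoxifen, and a group without either was not analysed here; the tdTomato label records past activity of the actin gene, not its present state, and the labels do not say whether the libraries came from single or pooled mice, so the spread behind each p-value may be technical.

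Class I molecules display peptides from the cell's own cytosol: a polymorphic heavy chain pairs with the light chain B2m, the proteasome cuts the peptides, the Tap1 and Tap2 transporter brings them into the endoplasmic reticulum, and tapasin (Tapbp) helps to load them. Class II molecules display peptides from endosomes: an alpha and a beta chain assemble on the invariant chain Cd74, and H2-DM then exchanges the remnant of Cd74 for a peptide. Nlrc5 is the transcriptional coactivator of class I genes and Ciita that of class II genes, and both pathways respond to interferon gamma. Lung capillary endothelium is known as one of the tissues outside the immune system that can carry class II as well as class I molecules.

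Both coactivators act through a promoter module named SXY, in which a Y box and an X box stand a short distance before the gene's start, so short stretches of promoters are shown here to let the members be compared. They run 5′ to 3′ on the gene's strand, come from RefSeq on the GRCm38.p6 assembly, and have motif letters in capitals. In the class II promoters the capitals mark the Y box (TGATTGG) and X box letters (AACNNATGATGC) read from H2-Eb1, H2-DMb1 and H2-Ob. In H2-Aa they mark the Y box and overlapping matches on both strands to TGACG, the core of a cyclic AMP response element. H2-Aa does not hold those exact X box letters, which does not show that it lacks an X box. In the class I promoters the capitals mark the NF-kappaB site of enhancer A (GGGGATTCCCC) and an element of the interferon-response type (AGTTTCACTT).
H2-Aa (chr17:34287852-34287912, minus strand): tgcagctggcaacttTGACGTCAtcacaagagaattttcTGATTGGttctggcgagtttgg
H2-Eb1 (chr17:34305763-34305827, plus strand): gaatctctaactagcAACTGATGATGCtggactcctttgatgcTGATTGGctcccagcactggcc
H2-DMb1 (chr17:34153084-34153149, plus strand): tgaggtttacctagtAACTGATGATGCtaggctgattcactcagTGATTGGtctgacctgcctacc
H2-Ob (chr17:34238805-34238867, plus strand): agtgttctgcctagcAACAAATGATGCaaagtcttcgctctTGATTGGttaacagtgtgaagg
H2-D1 (chr17:35262908-35262966, plus strand): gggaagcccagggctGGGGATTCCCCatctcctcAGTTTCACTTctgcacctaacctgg
H2-Q6 (chr17:35424662-35424720, plus strand): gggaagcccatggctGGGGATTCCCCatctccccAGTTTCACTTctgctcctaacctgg

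Of the 43 members, 30 had a promoter in the RefSeq table, and each motif was searched on both strands in the 250 bases before the start. Members are counted as genes with the letters in any of their promoters, whereas the shares over all are of single promoters, so the figures differ in unit. Promoters on chromosome 18, where Cd74 lies, were left out of the member counts. The Y box letters stood in 7 of 8 class II and 9 of 21 class I genes, against 7.23% of all 32851 promoters. The X box letters were read from H2-Eb1, H2-DMb1 and H2-Ob, with N where these differ. They stood in promoters of those genes and of H2-DMb2, thus in 4 of 8 class II and 0 of 21 class I genes, against 0.0304% of all promoters. Only these exact letters were sought, so a gene without them is not shown to lack an X box. The enhancer A letters, read from H2-D1, were also found in H2-K1 and H2-Q6, thus in 3 class I genes against 0.0304% of all promoters. The interferon-type letters, also read from H2-D1, stood in 8 class I genes against 0.128% of all promoters. Neither motif was found in the class II promoters counted. The core TGACG stood in 10 class I genes and 1 class II gene, against 17.8% of all promoters. The motif letters were chosen after these promoters had been viewed, so the counts describe the sequences and test nothing, and a match says nothing about binding in these cells.

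The libraries held 17050673 to 18574737 estimated counts each. Acta2, the actin gene the label is built on, stood at 281 and 450.2 TPM in tdTomato+ and 62.1 and 70.6 TPM in ZsGreen+ libraries, with a log2 fold change of 2.29 (SE 0.29, edgeR adjusted p = 0.0432). The 12 endothelial markers summed to 9487 and 9840 TPM in tdTomato+ and to 10463 and 10784 TPM in ZsGreen+ libraries, so the labelled cell type was present in all 4 libraries. Markers of other lung cells were also present, and more so in some libraries: the 16 macrophage markers summed to 9802 and 4463 TPM in tdTomato+ and to 4459 and 1087 TPM in ZsGreen+ libraries, and the 8 pan-leukocyte markers to 545.4, 346.1, 329.6 and 134.4 TPM in the same order. Most of the macrophage sum was Lyz2 alone, at 7397, 3482, 3389 and 834.7 TPM, and not every marker followed its order, as with Marco at 10.6, 49.1, 3.77 and 11.3 TPM. Alveolar type 2 markers summed to 1409.8, 1152, 690.5 and 312.4 TPM, and fibroblast markers to 237.7, 331.8, 149 and 124.2 TPM. No dendritic cell, B cell, or T and NK cell marker list exceeded 73.5 TPM in any library. Deposited TPM values ran a median of 0.15 log2 units higher in tdTomato+ libraries over 13046 genes, whereas after TMM scaling in edgeR the median log2 fold change of all genes tested was −0.007; levels are therefore given in TPM, and fold changes and overlaps of groups on the TMM scale, tdTomato+ over ZsGreen+.

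None of the class I or class II genes passed the test between the groups. In edgeR's quasi-likelihood test, 40 of 13177 genes tested, 0.304% of them (0.167% higher and 0.137% lower in tdTomato+ cells), had an adjusted p under 0.05, and these included 0 of the 25 class I and 0 of the 9 class II members that passed the filter on low counts. The adjusted p ranged from 0.723 to 0.997 in class I and from 0.215 to 0.986 in class II. At an unadjusted p under 0.05 stood 0 of 25 class I members and 3 of 9 class II members, Ciita, H2-Ab1 and H2-DMb1, against 8.77% of all genes tested. DESeq2, which called 330 of 13512 genes tested or 2.44%, called 0 class I members and 1 class II member, Ciita. In data simulated at this size, with the same spread for every gene, the same test called 19.3% of genes changed 2-fold and 98.7% of genes changed 4-fold. Changes were placed only in genes above a minimum level. The shares therefore do not cover low members such as H2-M2 (SE 0.788) and H2-DMb2 (SE 0.718), in which larger differences could also go without a call. Smaller differences could go without a call in any member.

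**Figure D1:**
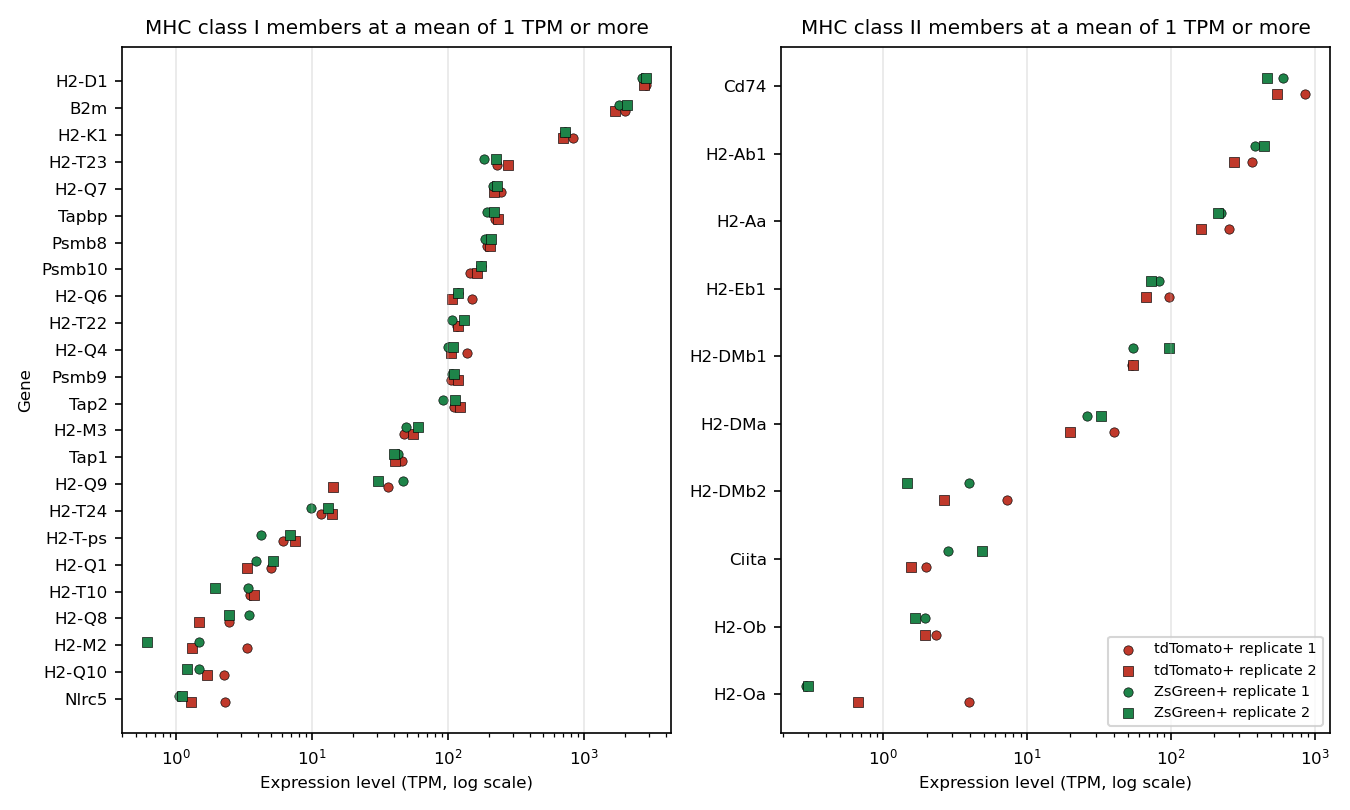
Expression level of each class I (left) and class II (right) gene at a mean of 1 TPM or more, in TPM on a log axis. Each point is 1 library, red for tdTomato+ and green for ZsGreen+, circles for replicate 1 and squares for replicate 2. H2-D1, B2m and H2-K1 lead class I and Cd74 and H2-Ab1 lead class II, and red and green points lie close together for most genes.

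Class I messages were abundant in both groups. The 30 members summed to 7494 and 6974 TPM in tdTomato+ libraries and to 6853 and 7467 TPM in ZsGreen+ libraries, so the groups overlapped on the TPM scale. After TMM scaling, H2-D1 and B2m were lower in both tdTomato+ libraries than in either ZsGreen+ library, while H2-K1 overlapped. The sum was not formed on that scale. H2-D1, a classical heavy chain that presents peptides to CD8 T cells, stood at 2853 and 2759 TPM in tdTomato+ and at 2663 and 2870.2 TPM in ZsGreen+ cells. It ranked between 38 and 50 among all genes in every library and made up 38.1% to 39.6% of the class I sum. The other classical heavy chain, H2-K1, stood at 829.8 and 704.6 TPM in tdTomato+ and at 722 and 721.5 TPM in ZsGreen+ cells. H2-D1 was thus 3.44 to 3.98 times as high as H2-K1 per library, and this ratio overlapped between the groups.

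The light chain B2m, the partner of the class I heavy chains, stood at 1989.6 and 1696 TPM in tdTomato+ and at 1819.8 and 2077 TPM in ZsGreen+ cells. Its level was 0.425 and 0.386 of the summed heavy chains in tdTomato+ libraries and 0.43 and 0.459 in ZsGreen+ libraries, so that the lower value of the second group lay just above the higher of the first. Its log2 fold change was −0.24 (SE 0.188, 95% interval −0.69 to 0.21, edgeR adjusted p = 0.833). For H2-D1 the log2 fold change was −0.13 (SE 0.19, interval −0.59 to 0.32) and for H2-K1 it was −0.05 (SE 0.202, interval −0.53 to 0.42). All 3 intervals span 0 and end short of a 2-fold difference in either direction.

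The non-classical heavy chains have narrower roles than H2-K1 and H2-D1. The 20 members grouped here summed to 999.2 and 931.4 TPM in tdTomato+ and to 848.2 and 935.8 TPM in ZsGreen+ libraries. They include H2-T10 and H2-Bl, which RefSeq lists as transcribed pseudogenes. H2-T23, which encodes Qa-1, a ligand of inhibitory receptors on natural killer cells, stood at 230.2 and 278.1 TPM in tdTomato+ and at 185.3 and 225.4 TPM in ZsGreen+ cells, with a log2 fold change of 0.16 (SE 0.19). H2-M3, which presents formylated peptides such as those of bacteria, stood at 47.4 and 55.5 TPM in tdTomato+ and at 48.9 and 59.6 TPM in ZsGreen+ cells. H2-T22, a ligand of some gamma delta T cells, stood at 116.7 and 118 TPM in tdTomato+ and at 106.2 and 132 TPM in ZsGreen+ cells. On the TPM scale only H2-T23 of these 3 genes did not overlap between the groups, and after TMM scaling it overlapped while H2-M3 and H2-T22 did not; none passed the test.

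The Qa-2 genes H2-Q6, H2-Q7, H2-Q8 and H2-Q9 are closely related and their single levels depend on how shared reads were assigned. H2-Q8 and H2-Q9 had no protein-coding transcript in the annotation used to look for shared sequence. H2-Q7 stood at 246.1 and 219 TPM in tdTomato+ and at 212.5 and 229.3 TPM in ZsGreen+ cells. H2-Q6 stood at 149.5 and 107.6 TPM in tdTomato+ and at 119.2 and 118.1 TPM in ZsGreen+ cells. H2-Q9 varied most among the members above 10 TPM in class I, at 36.4 and 14.1 TPM in tdTomato+ and 46.7 and 30.7 TPM in ZsGreen+ cells, with a log2 fold change of −0.82 (SE 0.455, edgeR adjusted p = 0.732). That value was −1.6 without tdTomato+ replicate 1 and −0.29 without tdTomato+ replicate 2. The sum of the 4 genes was steadier, at 434.4 and 342.2 TPM in tdTomato+ and at 381.7 and 380.6 TPM in ZsGreen+ libraries. H2-Q8 was low, at 2.44 and 1.46 TPM in tdTomato+ and 3.41 and 2.44 TPM in ZsGreen+ cells.

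The remaining heavy chains ranged widely. H2-Q4 stood at 136.8 and 104.9 TPM in tdTomato+ and 100.5 and 107.8 TPM in ZsGreen+ cells, and H2-T24 at 11.6 and 14 against 9.87 and 13 TPM. The pseudogene-named H2-T-ps, which RefSeq lists as protein coding, stood at 6.11 and 7.41 against 4.19 and 6.81 TPM. H2-Q1 stood at 4.93 and 3.29 against 3.86 and 5.1 TPM, and H2-T10 at 3.51 and 3.73 against 3.39 and 1.91 TPM. H2-M2 stood at 3.31 and 1.3 TPM in tdTomato+ and 1.46 and 0.61 TPM in ZsGreen+ cells, and H2-Q10, which encodes a secreted class I molecule, at 2.25 and 1.67 against 1.46 and 1.19 TPM. H2-Q2, H2-Bl, H2-T3, H2-M5, H2-T18 and H2-M10.2 averaged below 1 TPM, between 0 and 1.17 TPM in single libraries. None of these genes separates the groups in a way that passed the test.

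The counts of heavy chain genes depend on how reads that fit several genes were shared out. Of 22 heavy chain members, 18 had an estimated count that is not whole in at least 1 library, as did 4 of 12 class II members. Windows of 100 bases from the members' annotated protein-coding transcripts were compared with the transcripts of all other annotated genes. Of 26 class I members with a protein-coding transcript in that annotation, 15 held a window also found in another gene, against 3 of 12 class II members. H2-T22 shared 43.9% of its 50-base windows, chiefly with H2-T10, and H2-Q7 shared 34.9%. Tapbp shared 22.4%, H2-D1 13.9% and H2-K1 6.87%, whereas H2-T24 shared 3.17% and B2m none. Of 100-base windows H2-D1 shared 4.09% and H2-K1 none. In class II, H2-DMb1 and H2-DMb2 shared 27.2% and 25.9% of their 50-base windows, largely with each other, and H2-Oa shared 21.7%. The levels of genes with a large share of such windows are therefore uncertain, while H2-Aa, H2-Ab1, H2-Eb1 and Cd74 shared no window of either length.

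**Figure D2:**
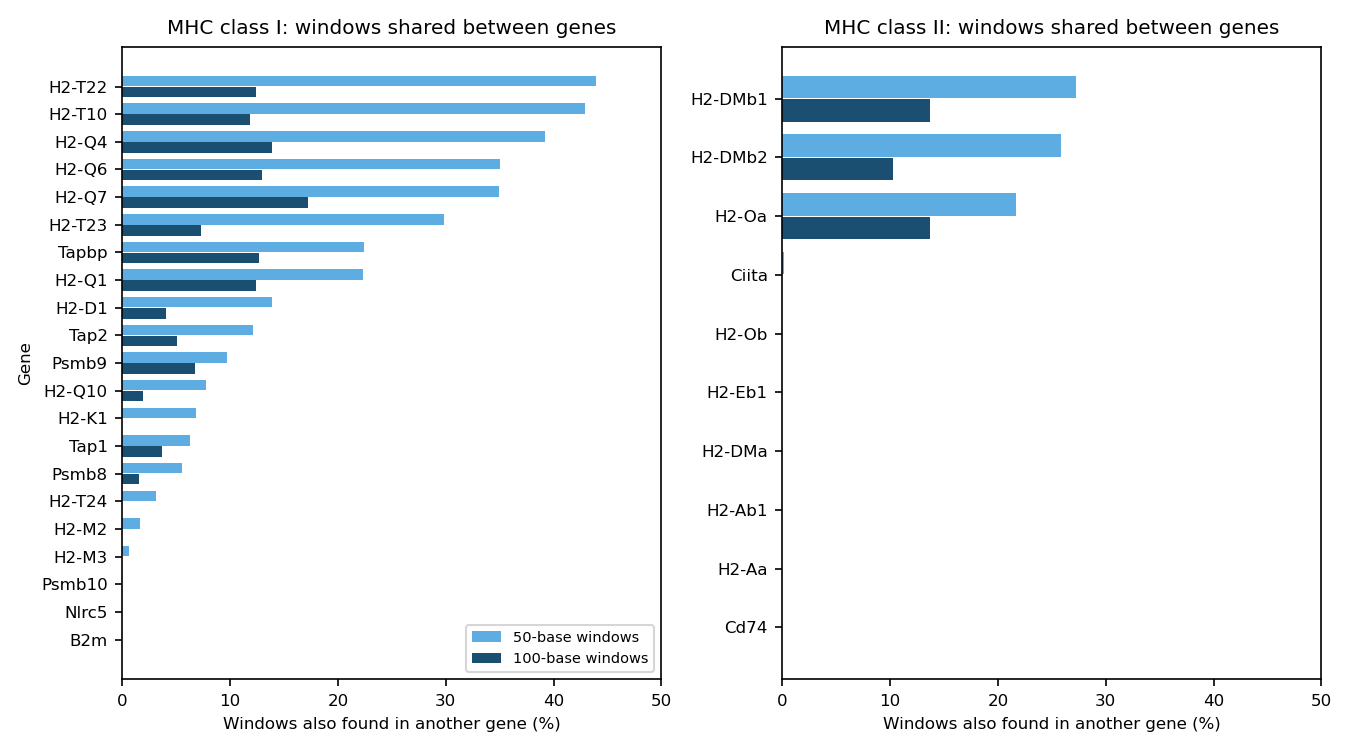
Share of each gene's protein-coding transcript windows, in percent, that also occur in the transcripts of another annotated gene. Shown are class I (left) and class II (right) members at a mean of 1 TPM or more that have an annotated protein-coding transcript. Light bars are windows of 50 bases and dark bars windows of 100 bases. H2-T22 is highest at 43.9% of 50-base windows, and B2m, Nlrc5, Psmb10 and most class II genes are at 0.

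The peptide supply of class I was likewise present in every library. Psmb8, Psmb9 and Psmb10 are the immunoproteasome subunits that replace Psmb5, Psmb6 and Psmb7 in the proteasome. Psmb8 stood at 194.1 and 204.5 TPM in tdTomato+ and 187.2 and 207.9 TPM in ZsGreen+ cells, and Psmb9 at 104.6 and 117.6 against 106.9 and 110.7 TPM. Psmb10 stood at 144.7 and 162.6 TPM in tdTomato+ and 174.8 and 173.7 TPM in ZsGreen+ cells, below in both tdTomato+ libraries, with a log2 fold change of −0.34 (SE 0.186, edgeR adjusted p = 0.723). The ratio of Psmb8 to Psmb5 was 0.533 and 0.593 in tdTomato+ and 0.471 and 0.605 in ZsGreen+ libraries, that of Psmb9 to Psmb6 lay between 0.224 and 0.266, and that of Psmb10 to Psmb7 between 0.856 and 1.08. The first and the last of these ratios overlapped between the groups, and the lowest tdTomato+ value of Psmb9 to Psmb6, 0.258, lay just above the highest ZsGreen+ value, 0.251.

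Of the transporter and loading genes, Tapbp stood at 220.9 and 234.9 TPM in tdTomato+ and 194.8 and 217.3 TPM in ZsGreen+ cells. Tap2 stood at 109.7 and 121.4 against 92.1 and 111.7 TPM, and Tap1 at 46.2 and 40.9 against 42.8 and 39.8 TPM. The coactivator Nlrc5 was among the lowest class I members at 2.26 and 1.28 TPM in tdTomato+ and 1.04 and 1.1 TPM in ZsGreen+ cells, from 88 to 177 estimated counts per library. Its log2 fold change was 0.56 (SE 0.391, 95% interval −0.37 to 1.48, edgeR adjusted p = 0.812). Both tdTomato+ libraries lay above both ZsGreen+ libraries, by far the more so in replicate 1, and the estimate was 0.13 when tdTomato+ replicate 1 was left out.

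Over the 25 class I members tested the median log2 fold change was −0.06, beside −0.007 for all genes, with 9 above and 16 below 0. Scaled counts did not overlap between the groups for 1 member that was higher in tdTomato+ cells, Nlrc5, against 19.8% of all genes, and for 7 that were lower, H2-D1, B2m, Psmb8, Psmb10, H2-T22, H2-M3 and H2-Q8, against 18.2% of all genes. On the TPM scale the median of the class I differences was 0.08 instead, and those of H2-D1 and H2-K1 were 0.02 and 0.08, so no direction can be given for class I as a whole.

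**Figure D3:**
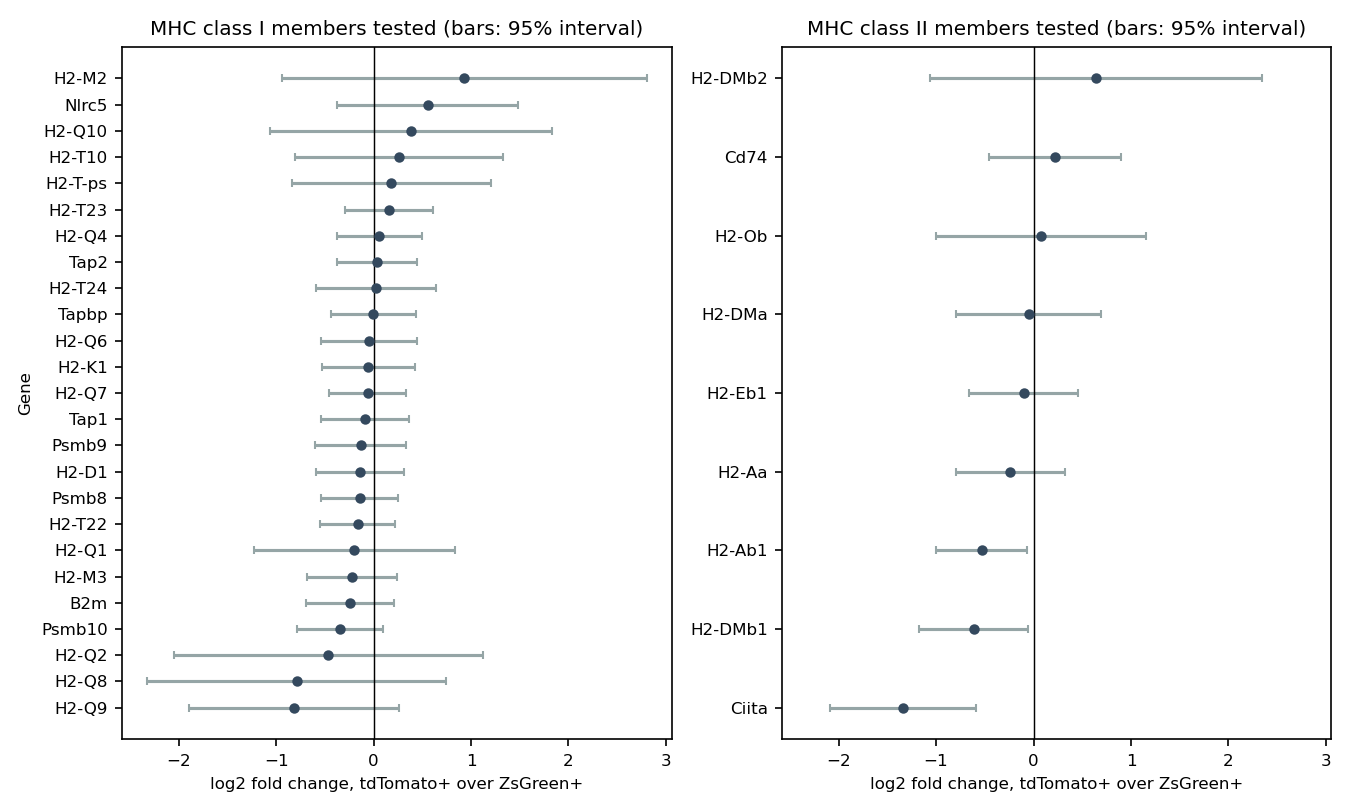
Log2 fold change, tdTomato+ over ZsGreen+, of the 25 class I (left) and 9 class II (right) members tested. Points are edgeR estimates from 2 libraries per group and bars their 95% intervals. Every class I interval spans 0; in class II those of Ciita, H2-DMb1 and H2-Ab1 lie below 0 before adjustment for the 13177 genes tested, and none passed after it.

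Class II messages were lower than class I messages but far from absent. The 12 members summed to 1686 and 1134 TPM in tdTomato+ and to 1382 and 1332 TPM in ZsGreen+ libraries, 0.225 and 0.163 of the class I sum in the first and 0.202 and 0.178 in the second. Ciita, H2-Ab1 and H2-DMb1 were lower in both tdTomato+ libraries than in either ZsGreen+ library, thus 3 of 9 tested against 18.2% of all genes, while the other 6 overlapped. Over the 9 members tested, 3 were above and 6 below 0, and the median log2 fold change was −0.1. That median rests on single libraries. It was −0.55 when tdTomato+ replicate 1 was left out and 0.16 when tdTomato+ replicate 2 was, and leaving out the first or second ZsGreen+ library gave 0.04 or −0.23.

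Ciita, without which class II genes are hardly transcribed, stood furthest from 0. Its level was 1.97 and 1.55 TPM in tdTomato+ and 2.83 and 4.88 TPM in ZsGreen+ cells, from 120.3 and 107.8 against 202.6 and 332.7 estimated counts. Both tdTomato+ libraries lay below both ZsGreen+ libraries. The log2 fold change was −1.34 (SE 0.315, 95% interval −2.09 to −0.59) with an unadjusted p of 0.00393 and an adjusted p of 0.215 in edgeR. Leaving out each library in turn gave values from −1.57 to −1.07, the latter without ZsGreen+ replicate 2, in which Ciita was highest. DESeq2 called the gene, at a log2 fold change of −1.36 and an adjusted p of 0.0251. Ciita lies on chromosome 16 at positions 10480014 to 10531064 (GRCm38.p6), outside the complex on chromosome 17.

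H2-Ab1, the beta chain of the I-A molecule, was the most abundant classical class II chain, at 366.8 and 274.3 TPM in tdTomato+ and 386.9 and 441.9 TPM in ZsGreen+ cells. Its log2 fold change was −0.53 (SE 0.197, 95% interval −0.998 to −0.062, edgeR adjusted p = 0.487). Its partner H2-Aa, the alpha chain, stood at 252.7 and 162.3 TPM in tdTomato+ and 221.9 and 211.7 TPM in ZsGreen+ cells, so that here the groups overlapped, with a log2 fold change of −0.24 (SE 0.235). The ratio of H2-Ab1 to H2-Aa was 1.45 and 1.69 in tdTomato+ and 1.74 and 2.09 in ZsGreen+ libraries. H2-Eb1, the beta chain of I-E, stood at 96.9 and 66.9 TPM in tdTomato+ and 82.9 and 72.5 TPM in ZsGreen+ cells, with a log2 fold change of −0.1 (SE 0.236). The row of its partner, H2-Ea-ps, was at 0 in all 4 libraries and carries a pseudogene name, and H2-Eb2 did not exceed 0.38 TPM.

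Cd74 was the most abundant class II member. It stood at 859.7 and 549.8 TPM in tdTomato+ and 600.3 and 468.2 TPM in ZsGreen+ cells, with a log2 fold change of 0.22 (SE 0.286, 95% interval −0.46 to 0.9, edgeR adjusted p = 0.91). Its highest value was in tdTomato+ replicate 1 and its lowest in ZsGreen+ replicate 2, and without either library the estimate was −0.09 or −0.06. Cd74 was 1.2 and 1.09 times the sum of the classical class II chains in tdTomato+ libraries and 0.868 and 0.645 times in ZsGreen+ libraries, a ratio that did not overlap and was not chosen for a test. As a share of the class II sum Cd74 took 51% and 48.5% in tdTomato+ and 43.4% and 35.2% in ZsGreen+ libraries, while H2-Ab1 took 21.8% and 24.2% against 28% and 33.2%.

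Leukocyte markers varied across the same libraries. The macrophage sum was highest in tdTomato+ replicate 1, at 9802 TPM, nearly equal in tdTomato+ replicate 2 and ZsGreen+ replicate 1, at 4463 and 4459 TPM, and lowest in ZsGreen+ replicate 2, at 1087 TPM; Cd74 had its highest and lowest values in the same libraries as this sum. All 16 macrophage markers had a log2 fold change above 0, where 50.7% of all genes tested lay below it. Of these markers 3 stood at an unadjusted p under 0.05, against 8.77% of all genes tested, and none passed the test. B cell markers summed to 26.2 and 9.1 TPM in tdTomato+ and 18.3 and 2.6 TPM in ZsGreen+ libraries, dendritic cell markers to 73.5 and 37.3 against 57.1 and 31 TPM, and T and NK cell markers to 45.8 and 26.8 against 26 and 18 TPM. No marker of these lists was at 0 in every library. Macrophages, dendritic cells and B cells are known to carry class II molecules. The alveolar type 2 sum was also highest in tdTomato+ replicate 1 and lowest in ZsGreen+ replicate 2, at 1409.8 and 312.4 TPM. On the TPM scale Ciita, H2-Ab1 and H2-DMb1 were highest in ZsGreen+ replicate 2. After TMM scaling this held for Ciita and H2-DMb1. H2-Ab1 was then highest in ZsGreen+ replicate 1, at 298.85 CPM against 287.03 CPM in ZsGreen+ replicate 2. ZsGreen+ replicate 2 had the lowest sum of every leukocyte list and of the alveolar type 2 and fibroblast lists. The part of these or other cell types in the class II values was not tested.

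**Figure D4:**
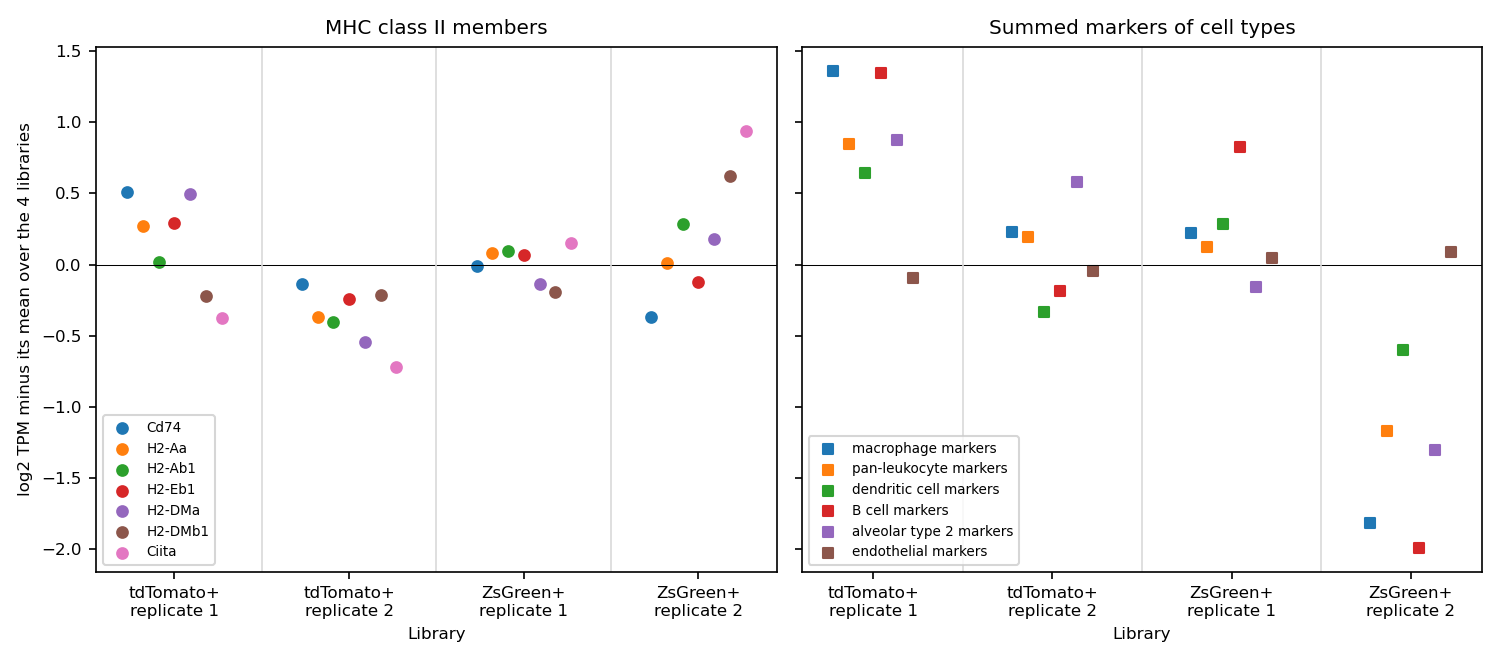
Each library's log2 TPM minus the mean over the 4 libraries, for 7 class II genes (left) and for summed markers of 6 cell types (right); each point is 1 gene or 1 summed list in 1 library. Cd74 is highest in tdTomato+ replicate 1 and lowest in ZsGreen+ replicate 2, as are the macrophage and B cell sums, whereas Ciita and H2-DMb1 are highest in ZsGreen+ replicate 2 and the endothelial sum hardly varies.

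H2-DM, the dimer of H2-DMa with an H2-DMb chain, edits the peptides of class II, and H2-DO, the dimer of H2-Oa and H2-Ob, inhibits it. H2-DMb1 stood at 54 and 54.3 TPM in tdTomato+ and 54.9 and 96.7 TPM in ZsGreen+ cells. On the TPM scale 1 ZsGreen+ library thus stood apart and the other was close to the tdTomato+ libraries. After TMM scaling H2-DMb1 stood at 36.37 and 38.59 CPM in tdTomato+ and 46.19 and 68.47 CPM in ZsGreen+ libraries. Its log2 fold change was −0.61 (SE 0.234, 95% interval −1.17 to −0.06, edgeR adjusted p = 0.507), and −0.31 without ZsGreen+ replicate 2. H2-DMb2 stood at 7.2 and 2.63 TPM in tdTomato+ and 3.91 and 1.46 TPM in ZsGreen+ cells, with a log2 fold change of 0.64 (SE 0.718). H2-DMa stood at 40.5 and 19.7 TPM in tdTomato+ and 26.2 and 32.4 TPM in ZsGreen+ cells, with a log2 fold change of −0.05 (SE 0.313).

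The DO genes were low. H2-Ob, whose product occurs chiefly in B cells and the thymus, stood at 2.31 and 1.93 TPM in tdTomato+ and 1.94 and 1.66 TPM in ZsGreen+ cells, from 48 to 64 estimated counts, and its groups overlapped. H2-Oa stood at 3.95 TPM in tdTomato+ replicate 1 and at 0.66, 0.29 and 0.3 TPM in the other libraries, from 38, 7, 3 and 3 estimated counts, and was not tested. The highest H2-Oa value was in the library with the highest B cell sum. That library also had the highest sum of every other leukocyte list and of the alveolar type 2 list. The part of any of these cell types in the H2-Oa value was not tested.

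The genes around the members gave no call either. The other promoter factors of the pathways, 12 genes such as the RFX and NF-Y subunits, had 0 calls, 0 genes at an unadjusted p under 0.05 and a median log2 fold change of 0.0. In this list Rfx5, a subunit of the factor that binds the X box, had the smallest p, at 6.36 TPM in each tdTomato+ library and 3.44 and 4.52 TPM in ZsGreen+ cells (log2 fold change 0.49, SE 0.252, edgeR adjusted p = 0.691). Of 21 genes of interferon gamma signalling tested, 0 were called, with a median of −0.01. At an unadjusted p under 0.05 stood 3, against 8.77% of all genes tested. These 3 were the guanylate-binding protein gene Gbp4 at 10.98 and 9.58 against 3.72 and 5.71 TPM (log2 fold change 0.98, SE 0.236), the interferon-inducible GTPase gene Iigp1 at 23 and 17.3 against 10.1 and 13.6 TPM (0.63, SE 0.221), and Cd274, which encodes the checkpoint ligand PD-L1, at 7.94 and 3.98 against 2.56 and 2.27 TPM (1.15, SE 0.394).

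In the loading and trimming list, 10 genes beside the members, 0 were called, 0 stood at an unadjusted p under 0.05, the median was −0.02, and the gene of smallest p, Sar1b, which encodes a GTPase of vesicles that leave the endoplasmic reticulum, stood at 95.4 and 88.9 against 94.9 and 122.9 TPM. The 12 proteasome partners had 0 calls, 0 genes at an unadjusted p under 0.05 and a median of −0.19, and Psmb7, which had the smallest p, stood at 169.2 and 150.4 against 170.3 and 175.5 TPM. Of 11 genes of endosomal processing tested, which degrade antigens and the invariant chain, 0 were called and the median was 0.06. Against 8.77% of all genes tested, 1 stood at an unadjusted p under 0.05. That gene, the cathepsin gene Ctsh, stood at 194.6 and 251.8 TPM in tdTomato+ and 63 and 46.6 TPM in ZsGreen+ cells, with a log2 fold change of 1.86 (SE 0.277, edgeR adjusted p = 0.0768). Ctsh is also a product of alveolar type 2 cells, whose 10 markers all had a log2 fold change above 0. Of these markers 5 stood at an unadjusted p under 0.05, against 8.77% of all genes tested. The part of these cells in the Ctsh value was not tested.

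Lung capillaries hold aerocytes, which line the gas exchange surface, and general capillary cells, and markers of both were read beside the MHC genes. Of 12 aerocyte markers 12 lay below 0, against 50.7% of all genes tested. At an unadjusted p under 0.05 stood 7, against 8.77% of all genes tested. Among the 12 markers 1, Prx, was called, against 0.137% of all genes called lower. Prx stood at 11.4 and 9.67 TPM in tdTomato+ and 26.5 and 38.4 TPM in ZsGreen+ cells (log2 fold change −1.74, SE 0.196, edgeR adjusted p = 0.0304). Of 12 general capillary markers 10 lay below 0 and 0 were called, and 4 stood at an unadjusted p under 0.05, against the same 8.77%. In bulk libraries fewer cells of a type and less RNA per cell cannot be told apart, and the part of capillary subtypes in the Ciita and H2-Ab1 values was not tested.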

How the data were processed

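Values are as the authors deposited them for 4 libraries: estimated counts per gene, per the file headers read counts, of which 16.2% to 17.9% per library are not whole, and TPM, each column of which sums to between 999999 and 1000001. The submitters' processing notes name RSEM 1.3.1, DESeq2 1.4.5, mm10 and GRCm38, with no role given. Aligner, strand setting and read length were not given in the sources used here. Overlapping and antisense genes such as Tap1 and Psmb9 may therefore share reads. Per the labels' protocols, little RNA was amplified before the libraries were made, and molecular identifiers are not mentioned, so the counts may include amplified copies. 8 further per-sample columns (FPKM and normalized counts) were not used.

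Groups come from the sample titles. Counts were rounded and compared with edgeR 4.0.16 (R 4.3.3): TMM factors 1.045, 1.026, 0.927 and 1.005, filterByExpr with a minimum count of 10, two-sided quasi-likelihood F-test, and Benjamini-Hochberg adjustment over all 13177 genes tested, with calls at 0.05. The biological coefficient of variation was 26.1%. An exact permutation test of 2 against 2 libraries cannot go below p = 0.333, so none was run. In data simulated for this comparison over 13177 genes, in 3 runs, 19.3% of 2-fold, 98.7% of 4-fold and 100% of larger changes were called, and 12 of 38411 unchanged genes. Every simulated gene had the same spread, and changes were placed only in genes above a minimum level.

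Members, the 17 lists of 211 genes (8 of which are not analysed here) and tests were chosen with earlier results of these data known. Every member at a mean of 1 TPM or more is named, and of each list up to 3 genes, those of lowest p among genes averaging 1 CPM or more. H2-Oa and the other members below the filter on low counts were not tested. Of the members, 38 of 43 rows are placed on alternate contigs in the deposited table, so the spans come from RefSeq on GRCm38.p6, where all 43 identifiers matched. Shared windows come from the members' protein-coding GENCODE M21 transcripts, compared with all transcripts of other genes. Alternatives were other size factors, DESeq2 1.42.0, other filters, unrounded counts, limma 3.58.1 on log2 TPM, each library left out, and a replicate block.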

Additional observations from a re-analysis of the deposited data

How the results depend on the processing

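Across 14 alternatives the log2 fold change of Ciita lay between −1.57 and −0.79 and below 0 in all, with an adjusted p from 0.0618 to 0.894 when single libraries were left out. Genes called numbered 330 with DESeq2, 128 without a filter, 22 with limma on log2(TPM + 0.1), 0 with limma on unfiltered log2(TPM + 1) (1508 at an unadjusted p under 0.05), and 4 to 304 with single libraries left out. DESeq2 called 1 class II member, Ciita. Same-numbered libraries share a number only; their deviations correlated at 0.455 over 13177 genes, with 2 pairs. A replicate block called 934 genes, 1 class I member (H2-Q9, log2 fold change −0.89, adjusted p 0.00673) and 1 class II member (Ciita, −1.32, adjusted p 0.00102). The class I median was 0.078, 0.078 and 0.072 with limma on TPM (pseudocount 1, pseudocount 0.1, unfiltered), −0.111 without non-classical chains, and −0.171 to −0.019 with single libraries left out; the class II median ran from −0.546 to 0.162 then.

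Directions turned as follows, none past the threshold. With limma on TPM the values were 0.054 for H2-Eb1, 0.083 for H2-K1 and 0.021 for H2-D1 under all 3 settings. With single libraries left out they spanned −0.092 (without tdTomato+ replicate 1; −0.059 without ZsGreen+ replicate 2) to 0.561 for Cd74, −0.546 to 0.038 for H2-Aa, −0.349 to 0.14 for H2-Eb1 (0.137 without tdTomato+ replicate 2), −0.588 to 0.362 for H2-DMa, −0.195 to 1.701 for H2-DMb2, −0.182 to 0.084 for H2-K1 (0.06 without tdTomato+ replicate 2) and −0.002 to 0.325 for H2-T23. The cause was not tested. A group left with 1 library is assumed to vary like the other group. In simulated data most 2-fold differences went without a call, and H2-Oa had too few counts to be tested.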

Other observations

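Molecules that act beside the MHC at the cell surface gave values of their own. Of 13 costimulation and checkpoint ligand genes tested, 0 passed edgeR's test. Against 8.77% of all genes tested, 3 stood at an unadjusted p under 0.05. The median log2 fold change was 0.92, beside −0.007 for all genes. Cd86, a ligand of CD28 on T cells, stood at 1.71 and 1.95 TPM in tdTomato+ and at 0.25 and 0.15 TPM in ZsGreen+ libraries (log2 fold change 3.04, SE 0.691, edgeR adjusted p = 0.201). Icosl, the ligand of ICOS, stood at 3.74 and 4.85 TPM in tdTomato+ and at 1.33 and 2.29 TPM in ZsGreen+ libraries (log2 fold change 1.12, SE 0.413). Cd86 is also carried by macrophages and dendritic cells, and the 8 pan-leukocyte markers all had a log2 fold change above 0; their part in it was not tested.

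MHC class I-like genes with names outside the H2 series had 0 calls among 8 tested, and a median log2 fold change of 0.02. At an unadjusted p under 0.05 stood 2, against 8.77% of all genes tested. Procr, the endothelial receptor of protein C and a relative of class I heavy chains, stood at 200.4 and 184 TPM in tdTomato+ and at 95.8 and 100.2 TPM in ZsGreen+ libraries (log2 fold change 0.8, SE 0.168, edgeR adjusted p = 0.164). Raet1e, a ligand of the activating receptor NKG2D, stood at 9.64 and 7.84 TPM in tdTomato+ and at 3.71 and 3.28 TPM in ZsGreen+ libraries (log2 fold change 1.17, SE 0.383). Fcgrt, the neonatal Fc receptor heavy chain, stood at 67.2 and 80.5 against 66.7 and 85.2 TPM, with overlapping groups.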
